A study of Mus musculus with 9 samples.

Results

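Nuclei carrying neutrophil markers were examined in single-nucleus RNA-seq of mouse hearts. The nuclei were chosen by a count of genes with at least 1 UMI (unique molecular identifier, 1 captured RNA molecule): at least 3 of Csf3r, S100a9, S100a8, Retnlg, Il1r2, Slfn4, Hdc, Entpd3 and Trim30b, and at most 2 of the endothelial, fibroblast, cardiomyocyte and macrophage genes Pecam1, Ptprb, Flt1, Abca8a, Pdgfra, Rbm20, Ldb3, Mrc1 and Cd163. Of 49171 nuclei in 9 hearts, 699 met this rule, 1.42% of all, and they are called marker nuclei here. The hearts came from 8-week-old C57BL/6 mice in 3 groups of 3. Sham mice were gavaged with vehicle for 7 days and had the needle passed without ligation. I/R mice received the same vehicle, then 30 min of ligation of the left anterior descending coronary artery and 24 h of reperfusion. SBP mice, labelled MUSKARDIA, received Shexiang Baoxin Pill solution for the 7 days before the same ischemia and reperfusion. The labels give 3 replicates per group, and the study's text states that each sample was taken from an individual of its own, so p-values measure the spread between these animals. Strain, age and the piece of tissue, from below the ligature, are as the study's text gives them, and the share of nuclei of a type describes that piece.

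Neutrophils are short-lived granulocytes made in the bone marrow and released into blood. After coronary reperfusion they are among the first leukocytes to enter the damaged myocardium, drawn by chemokines that bind the receptor Cxcr2 and held on activated endothelium by selectins and integrins. In the tissue they release granule enzymes and reactive oxygen and secrete interleukin-1β, and they are later cleared by macrophages. Their nuclei hold little RNA and condensed chromatin, and many of their granule proteins are made earlier, in the marrow.

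The 9 tables held 10329520 to 18205985 UMIs per sample, with a median of 1540 to 2031 UMIs per nucleus. The marker nuclei had a median of 1583 UMIs and 1102 genes. They numbered 5, 0 and 2 in the sham samples, 70, 361 and 100 in the I/R samples, and 57, 73 and 31 in the SBP samples. More than a single sample carried 290 of the barcode sequences, on 580 nuclei, and 7 marker nuclei had such a barcode, with none shared between 2 marker nuclei. I/R replicate 2 stood apart from the other 8 samples. It held 361 of the 699 marker nuclei, and its cardiomyocyte-class nuclei carried S100a8 in 18.3% of cases, against 0.476% to 4.76% in the other 8 samples. Results that rest on it are given below with and without it.

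The label neutrophil held for only some of these nuclei. The barcodes in each table run in alphabetical stretches, in an order shared by the 9 samples, and the 9th stretch was rich in neutrophil markers in every I/R and SBP sample. The tables do not name the stretches, and this one was picked after the values were seen, for its high share of nuclei with rule markers. It held 227 nuclei, of which 160 were marker nuclei (22.9% of all marker nuclei). The other 539 lay elsewhere: 347 in the stretch with most macrophage-class nuclei, 76 in the fibroblast stretch, 58 in the endothelial stretch, 38 in the cardiomyocyte stretch and 20 in others. A macrophage-class nucleus was defined as one with UMIs of at least 3 of 10 macrophage genes, at most 2 of 7 endothelial, fibroblast and cardiomyocyte genes, and no place among the marker nuclei, which gave 8154 nuclei.

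Genes that the rule did not use separated these sub-sets. A list of 28 further neutrophil genes included Cxcr2, the receptor for neutrophil-attracting chemokines, Mmp8 and Mmp9, the granule collagenase and gelatinase, and Trem1, an amplifying receptor of myeloid cells. At least 3 of the 28 were present in 73.8% of the marker nuclei of the 9th stretch, in 34.5% of those elsewhere and in 5.67% of macrophage-class nuclei, and with I/R replicate 2 left out in 69.4%, 23.7% and 2.97%. At least 2 genes of the macrophage list, Mrc1 and Cd163 aside, were present in 33.1% of the marker nuclei of the 9th stretch, in 69.6% of those elsewhere and in 61.2% of all marker nuclei. The sub-sets differed in depth, with a median of 874.5 UMIs in the 9th stretch and 1916 elsewhere. After every nucleus was thinned to 500 UMIs, 221 of the 699 still met the rule, 134 in the 9th stretch and 87 elsewhere, and 24 nuclei outside the 699 came to meet it. Elsewhere, 249 of 539 met the rule only with S100a8 or S100a9 counted, against 18 of 160 in the 9th stretch. With neither gene counted, 53.8% of those elsewhere and 88.75% of those in the 9th stretch met it. With I/R replicate 2 left out these shares were 67.2% and 91.8%. The marker nuclei are therefore described below as a mixed set.

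The threshold cut through a continuous range. Exactly 3 rule markers were present in 366 marker nuclei, 4 in 154, 5 in 80 and 6 or more in 99, of which 9 nuclei, all from I/R hearts, had all 9. Just outside the rule, 1436 nuclei had 2 markers, and 189 had at least 3 markers but exactly 3 genes of other cell types. Of the 2-marker nuclei, 12.7% (7.80% with I/R replicate 2 left out) had at least 3 of the 28 further neutrophil genes and 68.2% had at least 2 macrophage genes. No gene of another cell type was present in 130 marker nuclei, 1 was present in 286 and 2 in 283.

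The 9 rule genes chose these nuclei, so their levels are given as a description. Csf3r, the receptor for granulocyte colony-stimulating factor (chromosome 4, 126023441 to 126044975, GRCm38), was present in 94.4% of marker nuclei of the 9th stretch and in 78.1% of those elsewhere, beside 24.7% of macrophage-class and 3.40% of cardiomyocyte-class nuclei. Its pooled level, scaled to all UMIs of the set as CPM, was 4059 CPM in the 9th stretch, 704 elsewhere and 170 in the macrophage class. S100a8 and S100a9 (chromosome 3, 90669071 to 90670034 and 90692630 to 90695721) encode the calcium-binding calprotectin subunits that neutrophils store in their cytosol. S100a9 stood at 2637, 325 and 24 CPM in the same order, and S100a8 at 2228, 318 and 26 CPM. Il1r2 (chromosome 1, 40084692 to 40125230), the decoy receptor of interleukin-1, stood at 2618, 385 and 20 CPM, and Retnlg (chromosome 16, 48872608 to 48874498), a resistin-like secreted protein of granulocytes, at 879, 63 and 4 CPM. All 5 were lower in marker nuclei outside the 9th stretch than in it, and lower again in the macrophage class. Hdc, which makes histamine from histidine, was at 846 CPM in the 9th stretch and 75 elsewhere. Slfn4, a Schlafen-family gene of myeloid cells, was at 4786 and 956 CPM. The levels without I/R replicate 2 were 2211 and 560 CPM for Slfn4, 318 and 15.2 CPM for Retnlg and 556 and 82.1 CPM for Hdc. In the 9th stretch, elsewhere and the macrophage class they were 2198, 260 and 14.6 CPM for S100a9, 1483, 182 and 11.2 CPM for S100a8 and 2119, 295 and 12.6 CPM for Il1r2.

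**Figure D1:**
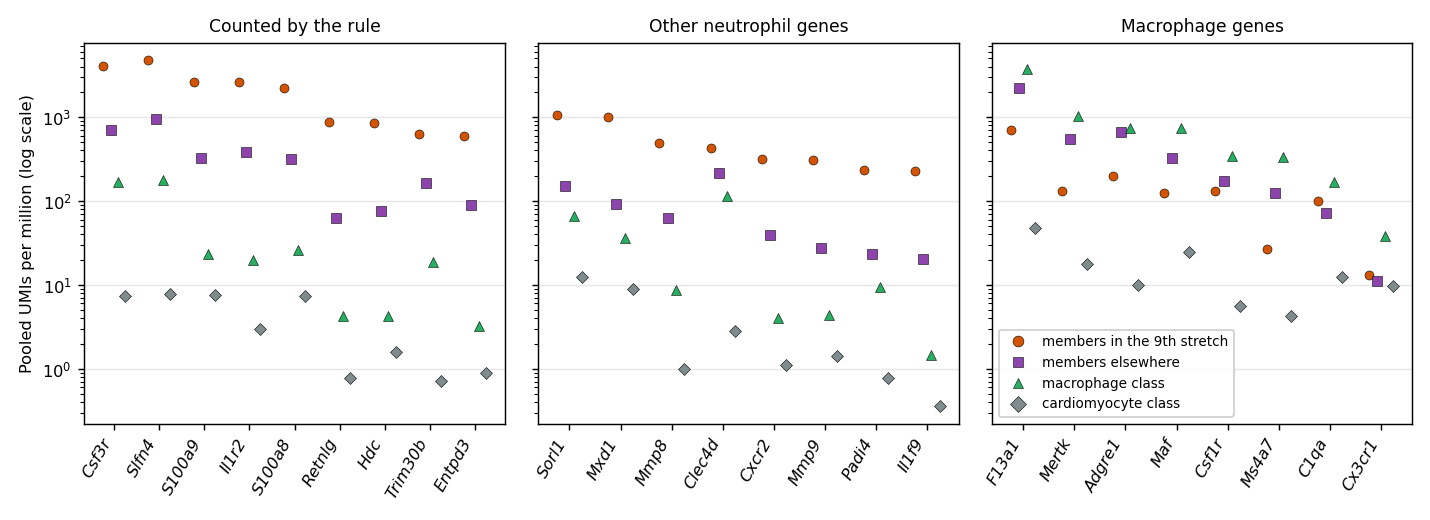
Pooled level of each gene (CPM, log scale) in marker nuclei of the 9th stretch (160 nuclei), marker nuclei elsewhere (539), macrophage-class nuclei (8154) and cardiomyocyte-class nuclei (5288), for the 9 rule genes, 8 other neutrophil genes and 8 macrophage genes. For the 9 rule genes and the 8 other neutrophil genes the 9th stretch lies highest, and for Mertk, Adgre1, Maf and Ms4a7 it lies below the marker nuclei elsewhere and the macrophage class, which was defined by UMIs of macrophage genes.

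A UMI of a marker was also found in nuclei that should lack it. In cardiomyocyte-class nuclei S100a9 was present in 0.476% to 5.29% of nuclei in the samples other than I/R replicate 2, and in 18.6% there, at a pooled median depth of 4338 UMIs. After thinning to 500 UMIs, S100a9 was present in 0.567% of cardiomyocyte-class, 1.45% of macrophage-class and 50.6% of 9th-stretch marker nuclei, and Csf3r in 0.378%, 8.12% and 83.8%. In the cardiomyocyte-class nuclei of I/R replicate 2 there were 5.81 S100a8 UMIs per Csf3r UMI, against 1.00 in the marker nuclei of that sample. The share of the marker nuclei that owe their place to free RNA was not tested.

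Over the 6 I/R and SBP samples, the marker nuclei held 1.58% of all UMIs. They held 38.7% of the Il1r2 UMIs, 40.2% of Retnlg, 27.6% of S100a9 and 22.4% of Csf3r. Among genes outside the rule they held 34.5% of Il1f9, which encodes an interleukin-36 cytokine, 32.3% of Cd177, a neutrophil surface protein, 26.9% of Mmp8 and 22.8% of Cxcr2. The marker nuclei held 0.904% of all UMIs when I/R replicate 2 was left out. The shares then were 27.6% for Il1r2, 26.8% for Retnlg, 22.4% for S100a9, 18.2% for Csf3r, 21.5% for Il1f9, 12.8% for Cd177 (6 of 47 UMIs), 12.3% for Mmp8 and 22.1% for Cxcr2. With that sample included, the macrophage class held 42.3% of the Csf3r UMIs and 61.7% of those of Clec4d, a C-type lectin receptor of myeloid cells. It held more UMIs than the marker nuclei for 2 of the 9 rule genes, Csf3r and Slfn4 (42.7% against 26.6%), and for 16 of the 28 further neutrophil genes, among them Fpr1 (54.3% against 21.5%), Acod1 (54.2% against 20.8%), Clec4e (50% against 16.8%), Padi4 (47.1% against 17.4%) and Fpr2 (43.7% against 20.9%). Without I/R replicate 2 the order turned for Acod1 (16.3% against 22.45%, of 49 UMIs). It turned the other way, to more in the macrophage class, for Trim30b, Mmp9, Trem1, Ly6g, Pglyrp1 and Cd177. Mmp8, level with that sample included (26.9% in each), also came to lie more in the macrophage class (35.5% against 12.3%). Il1f9 and Asprv1 came level, at 21.5% and 16.05% in each.

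Outside the rule, the 20 genes with the highest ratio of pooled level in marker nuclei to all other nuclei are given without a test, since the nuclei were chosen on correlated genes. I/R replicate 2 gave 50.8% of the UMIs of the marker nuclei, and for 11 of the 20 genes it gave over 75% of their UMIs in these nuclei. Abca13, a lipid transporter gene, led with 68.4 against 0.948 CPM, followed by Scrg1. The 20 included Nlrp12 (59.0 against 1.20 CPM), which restrains inflammatory signalling, Trem1 (44.9 against 1.20), the formyl peptide receptors Fpr1, Fpr2 and Fpr3, and Cxcr2 (67.7 against 2.65 CPM, chromosome 1, 74153994 to 74161246). I/R replicate 2 gave 93.5% of the Fpr1 UMIs and 20.8% of the Cxcr2 UMIs. For 8 of the 20, Fpr1, Fpr2, Fpr3, Acod1, Arg2, Mcemp1, Trem3 and Gm14548, the macrophage class held more of the UMIs than the marker nuclei did. For Acod1 this did not hold without I/R replicate 2 (16.3% against 22.45%). Without that sample the macrophage class held more for Trem1 (30% against 11%) and Mmp8 (35.5% against 12.3%) too. Il1b (chromosome 2, 129364569 to 129371164), which encodes interleukin-1β, was at 499 against 12.98 CPM and was present in 32.5% of marker nuclei against 2.12% of the others. Mmp8 was at 105 against 3.27 CPM. The other genes of the 20 were Il1f9, Rdh12, Rab44, Wfdc21, Mcemp1, Trem3, Arg2, Acod1, H2-Q10 and Gm14548. Without I/R replicate 2 the ratios of the 20 genes ranged from 9.88, for Gm14548, to 71.5, for Nlrp12, and 9 of them moved by over 1.5 times. They were lower without it for Scrg1 (35.6 in place of 58.2), Rdh12 (27.4 in place of 43.3), Trem1 (19.7 in place of 37.6), Fpr1 (14.97 in place of 24.2) and Gm14548 (9.88 in place of 21.9). They were higher without it for Wfdc21 (53.1 in place of 30.5), Acod1 (46.5 in place of 23.6), Cxcr2 (44.8 in place of 25.6) and H2-Q10 (39.1 in place of 22.5). The levels in marker nuclei were then 40.9 CPM for Abca13, 90.01 for Nlrp12, 109 for Cxcr2 and 47.7 for Mmp8. Of the 20, Abca13, Nlrp12, Rdh12 and Mmp8 lay at 383, 370, 390 and 489 CPM in the 9th stretch and at 32.8, 23.9, 26.1 and 62.0 CPM in the marker nuclei elsewhere. Without that sample they lay at 252, 530, 159 and 199 CPM in the 9th stretch and at 16.7, 39.5, 16.7 and 30.4 CPM elsewhere.

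Other genes were higher in the marker nuclei outside the 9th stretch than in it. Ccr2, the receptor that draws monocytes out of the marrow, stood at 176 CPM there with UMIs in 21.5% of nuclei, against 13.2 CPM and 1.25% in the 9th stretch. Gpnmb, a glycoprotein of lipid-laden macrophages, stood at 209 against 26.4 CPM. Ms4a4a, a macrophage membrane protein, stood at 521 against 79.3 CPM. Without I/R replicate 2, Ccr2, Gpnmb and Ms4a4a stood at 245, 380 and 292 CPM outside the 9th stretch and at 26.5, 39.7 and 39.7 CPM in it. Compared with the macrophage class, the same nuclei had more Il1b (347 against 38.5 CPM), Vcan, a matrix proteoglycan of monocytes (774 against 136), and Saa3, an acute-phase protein (798 against 165). I/R replicate 2 gave 1165 of the 1173 Saa3 UMIs and 887 of the 1076 Vcan UMIs of all marker nuclei. Without it Saa3 stood at 4.56 against 5.78 CPM, Vcan at 280 against 96.8 CPM and Il1b at 239 against 26.5 CPM.

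The functional lists were set side by side in the marker nuclei of the 9th stretch and the macrophage class by pooled level, with no test, for genes outside the rule with at least 50 UMIs in both sets together. The level was higher in the 9th stretch for 14 of 16 receptor genes, 20 of 24 cytokine genes, 14 of 17 adhesion genes, 5 of 6 oxidase genes and 5 of 7 granule genes, beside 42.2% of all 12701 genes. With I/R replicate 2 left out, the cytokine count was 12 of 22, and the others were 14 of 16, 13 of 17, 5 of 6 and 5 of 7, beside 41.9% of 12317 genes. The stretch was picked for rule markers, and the macrophage class leaves out marker nuclei. The lists also hold further neutrophil genes, among them Cxcr2, Fpr1, Fpr2, Acod1, Ptgs2, Mmp8 and Mmp9. An excess over all genes was thus partly built in, and these counts are a description only. How much of the excess came from this choice was not tested. Among adhesion genes, Fgr, a Src-family kinase that acts downstream of integrins, was at 1494 CPM in the 9th stretch and 172 in the macrophage class. Among cytokines, Il1b was at 1844 and 38.5 CPM, while Tnf had no UMI in the 9th stretch. The NADPH oxidase makes the respiratory burst: its cytosolic subunit Ncf1 was at 535 CPM in the 9th stretch against 174 in the macrophage class, whereas its membrane subunit Cybb was at 132 against 219 CPM (53.0 against 199 without I/R replicate 2). Of the granule genes, Mpo and Elane, made in early marrow precursors, had no UMI in the 699 marker nuclei. Some genes of later granules were present, while Ltf, Camp and Olfm4 had 9, 1 and 2 UMIs in the marker nuclei of the I/R and SBP hearts. Ngp was at 205 CPM in the 9th stretch and 0.654 in the macrophage class, and I/R replicate 2 alone gave all 41 of its UMIs in marker nuclei. Lcn2, which binds bacterial iron carriers, was at 568 and 15.5 CPM (225 and 4.75 without I/R replicate 2), and Chil3, a chitinase-like protein, at 740 and 31.9 CPM (847 and 19.8 without that sample).

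Markers of lymphocytes and of other granulocytes were summed in the same way. In all marker nuclei the 6 eosinophil genes summed to 10.1 CPM, with Epx, Prg2 and Ear1 at 0, against 1.20 CPM in all nuclei and 2.40 in the macrophage class. In the 9th stretch Siglecf alone gave the sum, 33.05 CPM, with Ccr3, Epx, Prg2, Ear1 and Ear2 at 0. The mast cell and basophil genes summed to 15.4 CPM, with Mcpt4, Fcer1a and Ms4a2 at 0, against 24.0 in all nuclei and 6.98 in the macrophage class. The 9 T and NK cell genes summed to 53.7 CPM, with Cd3g, Ncr1 and Klrb1c at 0, against 51.6 in all nuclei and 24.3 in the macrophage class, and reached 312 CPM in the marker nuclei of SBP replicate 2. The 7 B cell genes summed to 45.6 CPM, with Cd79b and Pax5 among those at 0, against 71.6 in all nuclei and 267 in the macrophage class. With I/R replicate 2 left out, the eosinophil genes summed to 19.1 CPM and the T and NK cell genes to 98.2 CPM in the marker nuclei. The 12 macrophage genes other than Mrc1 and Cd163 summed to 1613 CPM in the 9th stretch, 4443 CPM in the marker nuclei elsewhere and 7784 CPM in the macrophage class, and all 12 had UMIs in each. UMIs of macrophage genes defined that class, so its high sum and its levels of these genes are set by its definition. The 8 cardiomyocyte genes summed to 7959 CPM in the marker nuclei and 6494 CPM in the macrophage class.

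The first comparison asked how many marker nuclei each group held. Marker nuclei made up 0.109%, 0% and 0.0362% of the sham samples, where the 0 of 5919 nuclei allows a share of up to 0.0507% by the limit of 3 counts and up to 0.0623% by the exact 95% interval. They made up 1.09%, 6.96% and 1.76% of the I/R samples, with exact 95% intervals of 0.851% to 1.38%, 6.29% to 7.69% and 1.44% to 2.14%, which cover counting error only. In the SBP samples they made up 1.12%, 1.29% and 0.605%, with intervals of 0.853% to 1.46%, 1.01% to 1.61% and 0.411% to 0.858%. Every I/R and SBP sample lay above every sham sample, while the I/R and SBP samples overlapped.

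The group means were 0.0485% ± 0.0557 (SD, n = 3) in sham, 3.27% ± 3.21 (n = 3) in I/R and 1.01% ± 0.356 (n = 3) in SBP hearts. By a two-sided exact permutation test, I/R against sham gave p = 0.1 and SBP against sham p = 0.1, the smallest p that 3 against 3 samples allow. SBP against I/R gave a difference of -2.27 percentage points with exact permutation p = 0.3. After Benjamini-Hochberg adjustment over 6 tests of nuclei counts, the exact permutation values were 0.15, 0.15 and 0.36. Without I/R replicate 2 the difference between I/R and sham fell from 3.22 to 1.38 points and that between SBP and I/R moved from -2.27 to -0.422 points. No comparison could pass 0.05 at this number of hearts. More nuclei of a type in a sample cannot be told apart here from fewer nuclei of the other types or from more RNA per nucleus.

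The 9th stretch has limits set by the order of the barcodes, but it was picked for its share of nuclei with at least 2 rule markers. It is therefore no check independent of the rule, and its group means had the same order. Its nuclei made up 0.0219%, 0.0507% and 0.0181% of the sham samples, 0.452%, 1.79% and 0.793% of the I/R samples, and 0.296%, 0.475% and 0.254% of the SBP samples. The mean was 1.01% ± 0.698 (SD, n = 3) in I/R and 0.342% ± 0.118 (n = 3) in SBP hearts, a difference of -0.671 points, given with no test since the stretch was picked after its values were seen. Without I/R replicate 2 the I/R mean was 0.623% and the difference -0.281 points. SBP replicate 2 lay above I/R replicate 1, and the other 2 SBP samples lay below all 3 I/R samples. The macrophage-class share was 7.54%, 9.48% and 12.95% in the sham samples, 32.8%, 21.0% and 17.6% in the I/R samples, and 10.7%, 21.8% and 11.01% in the SBP samples. Within I/R it did not follow the marker nuclei: replicate 1 had the highest macrophage-class share and the lowest share of marker nuclei and of the 9th stretch.

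**Figure D2:**
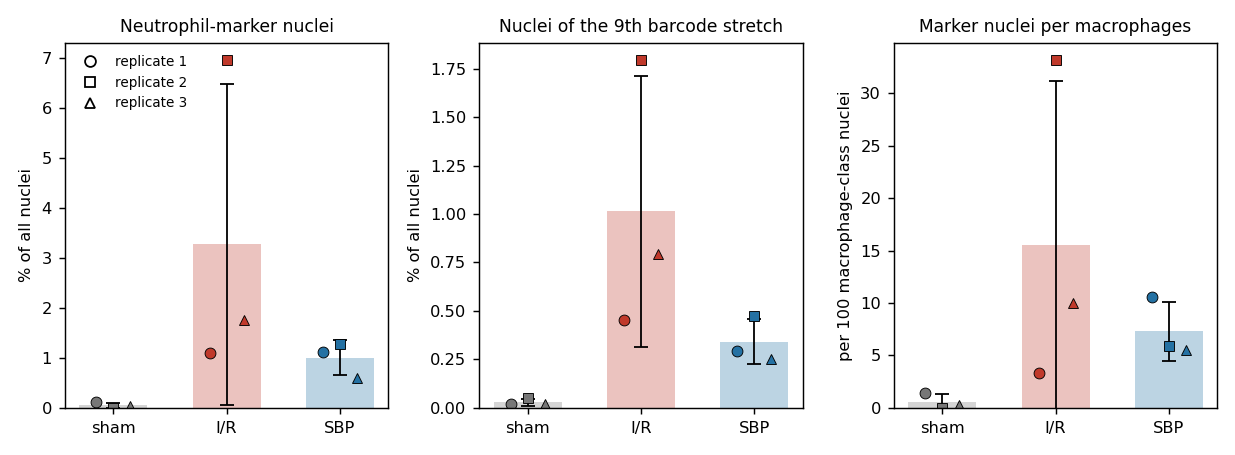
Marker nuclei as a percent of all nuclei (left), nuclei of the 9th stretch as a percent of all nuclei (middle) and marker nuclei per 100 macrophage-class nuclei (right), with 1 point per heart, bars at the group mean and lines of 1 SD (n = 3). The I/R group holds 1 high sample, replicate 2, at 6.96%, 1.79% and 33.2 per 100, and the sham samples lie near 0 in all 3 panels.

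Set against macrophages, marker nuclei numbered 1.45, 0 and 0.279 per 100 macrophage-class nuclei in sham, 3.33, 33.2 and 10.0 in I/R, and 10.5, 5.90 and 5.50 in SBP hearts. The means were 0.576 ± 0.769, 15.5 ± 15.7 and 7.31 ± 2.80 (SD, n = 3 each). I/R and SBP each lay above sham without overlap (exact permutation p = 0.1 for both). SBP against I/R differed by -8.19 per 100 (exact permutation p = 0.7), and without I/R replicate 2 the sign turned, to 0.635 per 100.

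The next comparison used genes that the rule did not use, summed over all nuclei of a heart, so that it did not depend on which nuclei were chosen. Of the 28 further neutrophil genes, 23 passed the filter on low counts. For 11 of the 23, among them 5 of the genes called below (Mmp8, Clec4e, Trem3, Il1f9 and Padi4), no sham sample reached the level of 0.718 CPM that the filter asked of 3 samples, so that these passed through the injured hearts. Between I/R and sham, 10 of the 28 rose and 1 fell (limma, adjusted p at most 0.05 and log2 fold change over 0.25), where 11.4% of all 16078 genes tested were called in either direction. Between SBP and sham 3 of the 28 rose, beside 3.28% of all genes. Between SBP and I/R none was called, beside 0% of all genes: 5 of the 23 (21.7%) had an unadjusted p under 0.05, as had 717 of 16078 genes (4.46%). Of the 23, 21 had a negative log2 difference, with a median of -0.42 beside -0.004 over all genes. Of the 5, Mmp8, Clec4d, Il1f9 and Msrb1 were lower in SBP, with log2 differences of -1.22, -1.01, -0.90 and -0.49, and G0s2 was higher, with 0.72 (adjusted p = 0.999 for each, limma). Without I/R replicate 2 these differences were -0.53, -0.48, -0.41, -0.48 and 0.59. The sign then turned positive for Mmp9, Clec4e (0.30), Trem1 (0.49), Trem3, Fpr1 (0.10), Fpr2, Ccrl2, Pglyrp1, Padi4 and Asprv1. It stayed negative for Cxcr2 (-0.37), Mxd1, Sorl1, Lrg1 and Cd300ld as well. The negative direction of the list thus rested largely on that sample.

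Cxcr2 stood at 1.03, 0.29 and 0.75 CPM in the sham samples, 4.22, 5.64 and 5.89 in the I/R samples, and 4.82, 2.90 and 3.42 in the SBP samples. Every I/R and SBP sample lay above every sham sample. On the log2(CPM + 1) scale it rose by 1.90 ± 0.24 (SE) between sham and I/R (adjusted p = 0.00288) and by 1.48 between sham and SBP (adjusted p = 0.0165). Mmp9 stood at 0.93, 0.50 and 0.31 CPM in sham, 3.96, 8.39 and 2.72 in I/R, and 4.29, 3.47 and 3.71 in SBP hearts, and rose by 1.84 in I/R (adjusted p = 0.00956) and by 1.62 in SBP (adjusted p = 0.0319). Clec4d had the largest difference of the 28, at 1.24, 0.50 and 1.06 CPM in sham, 36.5, 89.9 and 23.4 in I/R, and 21.6, 27.6 and 14.9 in SBP hearts. It rose by 4.52 in I/R (adjusted p = 0.000757) and by 3.51 in SBP (adjusted p = 0.00518), and most of its UMIs lay in macrophage-class nuclei as given above.

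The other 7 genes that rose in I/R were Mmp8 (log2 change 2.57), Clec4e, a receptor for damaged cells (3.14), Trem3 (1.62), Il1f9 (1.60), Lrg1, a secreted glycoprotein of granules and of endothelium (1.54), Padi4, which citrullinates histones in neutrophil extracellular traps (1.47), and the transcriptional repressor Mxd1 (0.98). Clec4e stood at 4.07, 42.5 and 3.797 CPM and Mmp8 at 3.45, 20.8 and 5.04 CPM in I/R. Without I/R replicate 2 the log2 changes were 2.09 for Clec4e, 1.87 for Mmp8 and 0.98 for Trem3, and the 3 were still called (adjusted p = 0.00485, 0.00812 and 0.0461, limma). Padi4 and Lrg1 were not called without that sample (log2 changes 1.20 and 1.17, adjusted p = 0.131 and 0.149, limma). G0s2, a lipase inhibitor also expressed outside neutrophils, fell by 1.15 and was not called without that sample (log2 change -1.01, adjusted p = 0.0702). Fpr1, the formyl peptide receptor, was not called (log2 change 1.99 ± 0.90 SE, adjusted p = 0.18): it stood at 0.36, 29.2 and 1.42 CPM in I/R and 0.07 to 0.31 CPM in sham hearts, so that I/R replicate 2 alone set its mean. Without I/R replicate 2, 8 of the 28 were called between I/R and sham and 9 between SBP and sham, against 11 and 3 with it. The calls over all genes moved the same way, to 655 and 845 of 16095 genes, against 1830 and 527 of 16078 with it. The SBP calls of Cxcr2 and Mmp9 were lost without sham replicate 3, SBP replicate 1 or SBP replicate 3 (for Mmp9 also without sham replicate 1 or 2 or SBP replicate 2). Leaving out each sham sample in turn left 3 to 5 of the 28 called in I/R, and Cxcr2, Mmp9 and Clec4d were called in I/R in each of these fits. Over all genes these fits called 713 of 16148, 978 of 16112 and 403 of 15981 genes. With scaling to total UMIs in place of TMM the median of all 16078 genes moved from -0.03 to 0.08, and the share of called genes that were higher from 52.2% to 71.1%, while the list kept 10 higher and 1 lower.

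**Figure D3:**
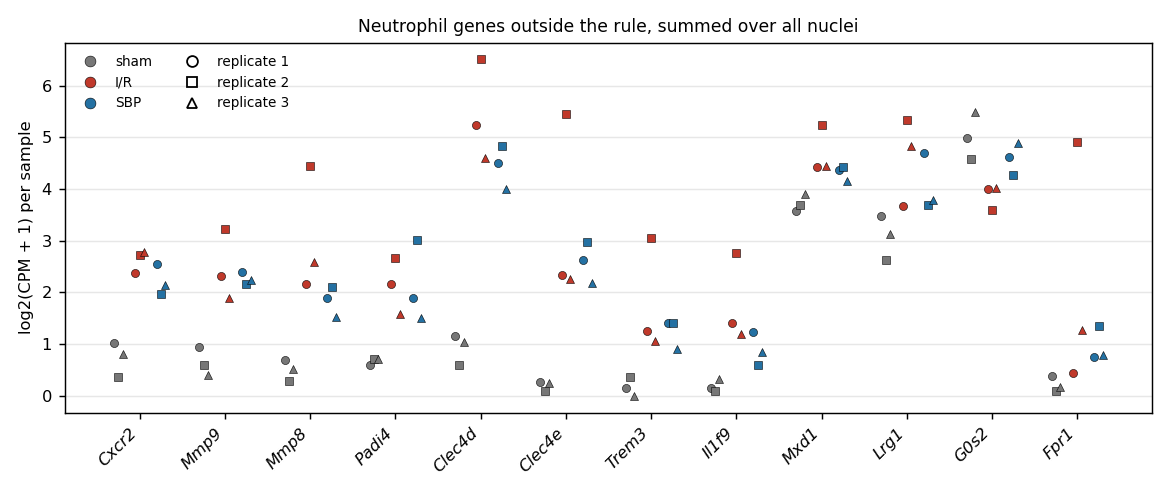
Level of 12 of the 28 further neutrophil genes on the log2(CPM + 1) scale, summed over all nuclei of each heart, with 1 symbol per heart and colours for the 3 groups. For Cxcr2, Mmp9, Mmp8, Clec4d, Clec4e and Il1f9 the 3 I/R hearts lie above the 3 sham hearts, and for Fpr1 only I/R replicate 2 lies far above the rest.

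The nuclei that were not marker nuclei were then examined for 19 genes of leukocyte attraction, growth factors, cytokines and endothelial adhesion. Of these, 17 passed the filter, and not all of the list is particular to neutrophils. For 4 of the 17, Cxcl3, Il6, Saa3 and Ackr1, no sham sample reached the filter's level of 0.724 CPM, so that these passed through the injured hearts, and 2 of them, Cxcl3 and Il6, are among the genes called. Between I/R and sham 4 of the 19 rose and none fell, beside 10.4% of all 15982 genes tested. Between SBP and sham 1 rose, beside 3.32% of all genes. With I/R replicate 2 left out, Cxcl2, Cxcl3, Cxcl5, Il6, Il1b and Selp were called between SBP and sham, beside 786 of all 16075 genes. Between SBP and I/R none was called by limma, beside 0% of all genes: none of the 17 had an unadjusted p under 0.05, while 675 of the 15982 genes did. Of the 17, 14 had a negative log2 difference, with a median of -0.20 beside 0.003 over all genes. Without I/R replicate 2 the sign turned positive for Cxcl2 (1.04), Cxcl3, Il1b (0.48), Ccl2, Ccl7, Selp (0.26), Vcam1 and Ackr1. It stayed negative for Cxcl5 (-0.13), Cxcl12, Il6 (-0.16), Saa3, Sele and Icam1.

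Cxcl5, a chemokine ligand of Cxcr2, stood at 1.2, 1.9 and 1.9 CPM in sham, 22.3, 40.9 and 19.7 in I/R, and 18.8, 22.6 and 16.4 in SBP hearts. All I/R and SBP hearts lay above all sham hearts, and Cxcl5 rose by 3.36 ± 0.26 (SE) on the log2 scale in I/R (adjusted p = 0.000254) and by 2.93 in SBP (adjusted p = 0.000929). Il6, a cytokine of injured stroma, stood at 0 to 0.5 CPM in sham and 6.7, 29.9 and 5.1 CPM in I/R hearts and rose by 3.25 (adjusted p = 0.0101). Cxcl3, another Cxcr2 ligand, had no UMI in the sham hearts and stood at 1.4, 26.5 and 3.1 CPM in I/R hearts (adjusted p = 0.0415). Il1b rose by 1.94 (adjusted p = 0.0427). With I/R replicate 2 left out, the log2 changes were 2.52 for Il6 and 1.26 for Il1b. Cxcl5 and Il6 were called in all 10 alternative fits, and Cxcl3 and Il1b in 4 and 2 of them. Both lost their call without any sham or any SBP replicate, and Il1b also without I/R replicate 1 or 2.

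The remaining genes of the list did not pass. Cxcl2, a Cxcr2 ligand, stood at 3.3, 96.7 and 6.2 CPM in I/R and 0.3 to 1.1 CPM in sham hearts, a log2 difference of 3.11 ± 0.97 (SE) with adjusted p = 0.070 (1.73 without I/R replicate 2, adjusted p = 0.0881). Saa3 stood at 468 CPM in I/R replicate 2 and 2.1 and 7.4 in the other 2 I/R hearts. Selp and Sele, the endothelial selectins, stood at 41.5 and 9.0 CPM in I/R replicate 2, against 3.5 to 5.8 and 0.6 to 0.9 in the other 2. Icam1 and Vcam1, the endothelial ligands of leukocyte integrins, had log2 differences of 0.23 ± 0.44 and -0.37 ± 0.29 (SE) between I/R and sham. Without I/R replicate 2 these were -0.29 and -0.66. I/R replicate 2, the sample with the most marker nuclei, had the highest Cxcl2, Saa3, Selp and Sele, and also the highest Cxcl3, Cxcl5, Il6 and Il1b. The other hearts did not keep this order for Cxcl2. It stood at 23.2 CPM in SBP replicate 1, with 1.12% marker nuclei, and at 6.2 CPM in I/R replicate 3, with 1.76%. A link between these genes and the marker nuclei was not tested.

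**Figure D4:**
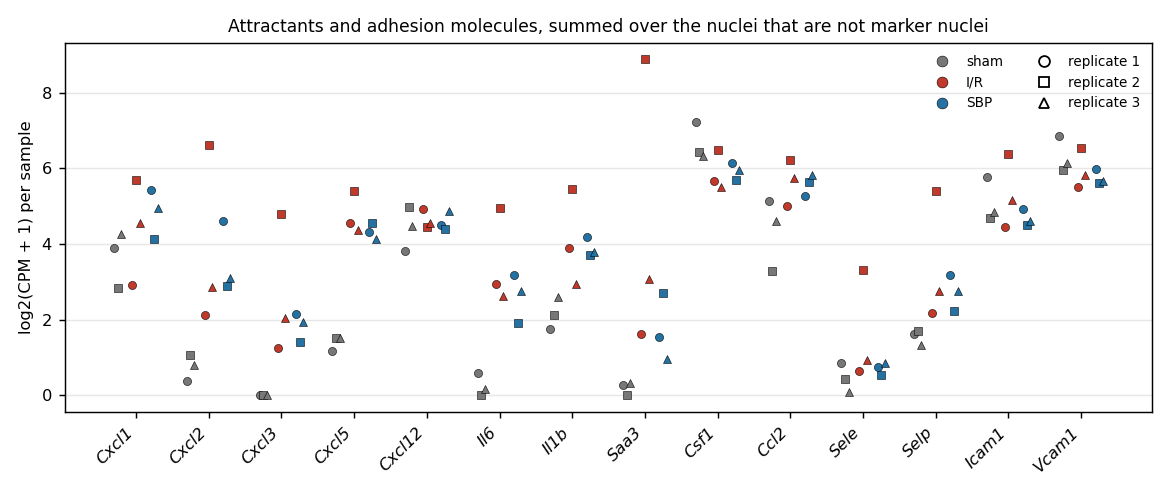
Level of 14 of the 19 attractant and adhesion genes on the log2(CPM + 1) scale, summed over the nuclei of each heart that were not marker nuclei, with 1 symbol per heart. Cxcl5 and Il6 separate the 3 sham hearts from the I/R and SBP hearts, and I/R replicate 2 is highest for Cxcl2, Saa3, Sele and Selp.

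The last comparison asked whether genes within the marker nuclei differed between SBP and I/R hearts. Sham hearts held 5, 0 and 2 marker nuclei, under the minimum of 20, so neither group could be compared with sham within them. The 6 remaining hearts gave 45818 to 757720 UMIs, and 4269 genes were tested. None was called by limma (0% of the genes, smallest adjusted p = 0.959), and 124 (2.9%) had an unadjusted p under 0.05. The 5 genes with the smallest p were Rmnd5a, Myh7, Clcn5, Tesk2 and P4ha1, and none of them was called. Rmnd5a, a subunit of a ubiquitin ligase complex, stood at 199, 265 and 146 scaled CPM in I/R and 65.7, 69.7 and 70.8 in SBP hearts, a log2 difference of -1.51 ± 0.35 (SE). Myh7, the cardiomyocyte β-myosin heavy chain, stood at 6.41, 147 and 18.2 in I/R and 347, 581 and 195 in SBP hearts. Over all nuclei Myh7 differed in the same direction, by 2.97 ± 0.82 (SE) on the log2 scale, and was not called there.

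The rule genes chose the nuclei, and their levels are a description. Csf3r stood at 1128, 779 and 1580 scaled CPM in the marker nuclei of I/R hearts and 1482, 1086 and 2409 in those of SBP hearts, which overlapped. Slfn4 stood at 871, 2161 and 829 in I/R and 394, 790 and 531 in SBP hearts, and these did not overlap, which held for 375 of all 4269 genes tested. Of the 28 further neutrophil genes 8 were tested, none was called, and the median log2 difference was 0.26, beside -0.21 over all 4269 genes. With scaling to total UMIs the median of all genes was -0.07. Cxcr2 stood at 51.3, 30.9 and 173 scaled CPM in I/R and 84.4, 69.7 and 177 in SBP hearts, and Il1b at 173, 667 and 405 against 535, 279 and 1187. Both overlapped widely.

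No list held a called gene. The receptor, cytokine, adhesion, oxidase and transcription factor lists had medians between -0.15 and -0.06, with 10, 12, 14, 5 and 14 genes tested outside the rule. The 5 granule genes tested had a median of -1.26 and the 8 survival genes one of -0.31. The 8 genes tested of a list for cell states in tissue had a median of -0.73. The 7 monocyte genes had one of -0.89 and the 8 genes of injury macrophages one of -0.92. The tissue-state and injury macrophage lists share 3 tested genes, Gpnmb, Spp1 and Lgals3, so the former is not particular to neutrophils. For Pfkfb3, a regulator of glycolysis, the log2 difference was -0.89 ± 0.36 (SE, unadjusted p = 0.036, limma). Of the 14 interferon-stimulated genes tested, 13 had a negative log2 difference and the median was -0.57, where 2925 of all 4269 genes (68.5%) were negative. In the marker nuclei of the 9th stretch alone the interferon-stimulated genes of the list summed to 1958, 4897 and 4948 CPM in I/R and to 3904, 5686 and 2575 CPM in SBP hearts, which overlapped. Ddx58, the RNA sensor RIG-I, was the only one of them with an unadjusted p under 0.05, at 135, 103 and 68.3 scaled CPM in I/R against 46.9, 63.9 and 17.7 in SBP hearts.

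Macrophage genes were also compared within the marker nuclei. Outside the rule, 9 macrophage genes were tested, all 9 had a negative log2 difference, with a median of -1.13, and none was called. Ms4a7 stood at 557, 63.2 and 122.95 scaled CPM in I/R and 9.38, 81.3 and 17.7 in SBP hearts. The 12 macrophage genes other than Mrc1 and Cd163 summed to 4176, 5231 and 3376 CPM in the marker nuclei of I/R hearts and to 2579, 2644 and 742 in those of SBP hearts, with no overlap. Of single genes, 375 of the 4269 tested had no overlap. Over all nuclei the same sum did not overlap either, at 2171, 2353 and 1692 CPM in I/R and 1196, 1492 and 1253 in SBP hearts. At least 2 of the 12 genes were present in 78.6%, 69.5% and 42.0% of the marker nuclei of the I/R hearts and in 43.9%, 61.6% and 25.8% of those of the SBP hearts. The part of this macrophage content in the other differences within the marker nuclei was not tested.

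**Figure D5:**
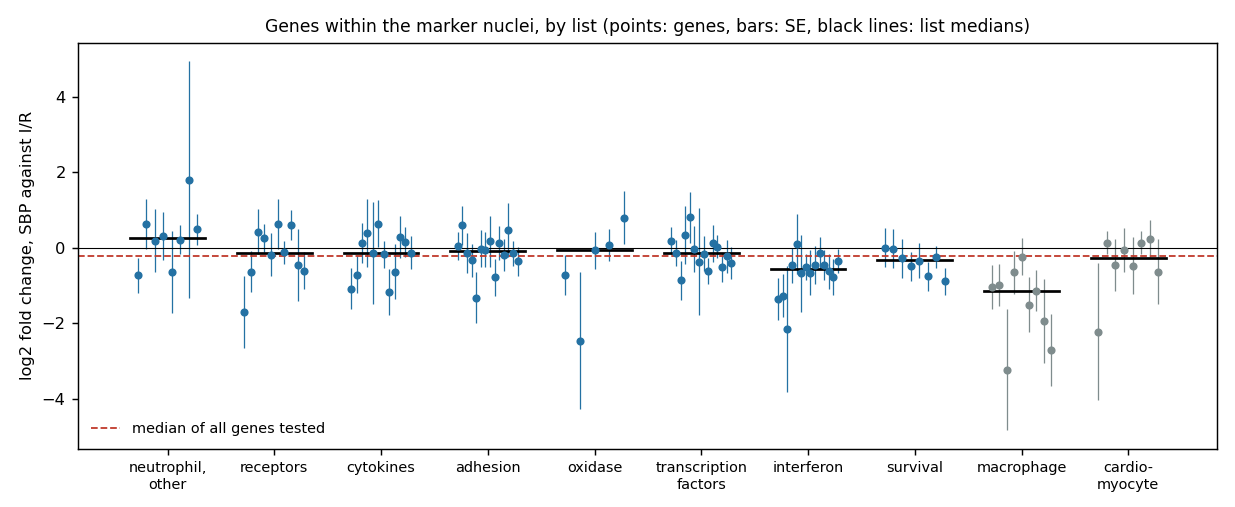
Log2 fold change between SBP and I/R hearts within the marker nuclei, for the genes tested of 10 lists, with 1 point per gene, bars of 1 SE, black lines at each list's median and a dashed line at -0.21, the median of all 4269 genes. Genes of the rule are left out. The 9 macrophage genes lie below 0, with a median of -1.13, and no gene was called.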

How the data were processed

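Single-nucleus RNA-seq (10x Genomics 3′ v3) of 9 hearts was analysed, 3 per group as labelled. Per the submitters' processing notes, reads were processed with Cell Ranger 4.0, STAR and Seurat 3.2.0 on GRCm38. The study's methods name other versions, quality filters on genes and mitochondrial UMIs, and down-sampling of reads. The deposited values are natural log (ln) values of 1 plus UMIs per 10000 per nucleus, from which whole UMIs were recovered (within 0.1 of a whole number). The tables held 49171 nuclei, fewer than the total stated in the study's text.

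UMIs were summed per sample over the chosen nuclei. Gene tests used limma 3.58.1 (R 4.3.3; trend and robust) on log2(CPM + 1) with TMM scaling. A gene was tested where 3 samples passed a CPM worth 10 UMIs at the median depth and the sum reached 15 UMIs. It was called at 0.05 or below after Benjamini-Hochberg adjustment, with a log2 change beyond 0.25 in either direction. Samples needed 20 marker nuclei for tests within them. The steps were tested on simulated data. Nuclei counts were compared by two-sided exact permutation tests (scipy 1.17.1). Gene positions are those of RefSeq for GRCm38.p6.

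No doublet caller was run, and the limit on genes of other cell types bears on doublets. The nuclei and gene lists were chosen with earlier results of these data known. Named within the marker nuclei were listed genes and, as fewer than 5 genes were called, the 5 with the smallest p, and outside tests the 20 genes with the highest ratio (at least 50 UMIs, in at least 5% of marker nuclei). The comparison over all nuclei, the 9th stretch and the pooled values without I/R replicate 2 were added after the data were seen. Ctsg, Ms4a3, Mx1, Mx2 and Mcpt8 were not analysed here. Replicate numbers did not pair the samples.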

Additional observations from a re-analysis of the deposited data

How the results depend on the processing

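The shares of marker nuclei kept their direction in all 3 comparisons with at least 4 or at least 2 markers, without S100a8 and S100a9, with no gene of another type allowed, without nuclei with macrophage genes, after thinning to 500 UMIs and over myeloid nuclei. Over myeloid nuclei the shares were 2.89%, 21.1% and 7.66% in I/R and 7.5%, 5.13% and 4.71% in SBP hearts. The lower SBP mean in that setting rested on I/R replicate 2. The 9th stretch had the same directions, but it was picked on the rule's markers. The exact permutation test could not reach 0.05 in any of these. Leaving out 1 heart at a time gave 1.38 to 4.31 points for I/R against sham, -3.36 to -0.422 for SBP against I/R and 0.816 to 1.16 for SBP against sham. Per 100 macrophage-class nuclei the ranges were 6.099 to 21.0, -14.3 to 0.635 and 5.12 to 7.64, where the reversal, to 0.635, came without I/R replicate 2 and its cause was not tested. Of the further neutrophil genes, 3 to 12 were called between I/R and sham, 0 to 0 between SBP and I/R, and 1 to 9 between SBP and sham. Over all genes the same fits called from 403 of 15981 to 2555 of 15876 between I/R and sham. Between SBP and I/R they called 0, and between SBP and sham from 42 of 15981 to 1051 of 15882. Of the 19 genes of the attractant and adhesion list, 2 to 7, 0 to 0 and 1 to 6 were called. Over all genes of the other nuclei those fits called from 366 of 15882 to 2423 of 15842 between I/R and sham. Between SBP and I/R they called 0, and between SBP and sham from 36 of 15882 to 1123 of 15822. Within the marker nuclei 0 genes were called in every fit run, and the fit without I/R replicate 2 had the smallest adjusted p of 0.138 (limma). With total UMI scaling the genes called higher among all called over all nuclei went from 52.2% to 71.1% for I/R against sham, and the number of further neutrophil genes stayed at 11. The replicate block over numbers gave the same differences in shares with exact sign permutation p = 0.25 or higher, 10 further neutrophil genes in I/R in place of 11, and 0 within the marker nuclei. Over all 16078 genes the block gave 1523 calls between I/R and sham in place of 1830. The same-numbered hearts had correlations in their deviations of -0.0982 to 0.0511 over 3 pairs within the marker nuclei and of -0.404 to 0.282 over 9 pairs in the other nuclei, of which 3 were above 0.1, so the numbers were not used as pairs. The fit of marker nuclei with no gene of another type could not be run, as too few samples held 20 of them, and the fits with at least 10 marker nuclei or only the 2 groups used the same 6 hearts. The marker nuclei of SBP replicate 3 held the fewest UMIs, 45818, and 0 genes were called without it too.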
